A study of Homo sapiens with 6 samples.

Results

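The insulin receptor, its docking substrates, the FOXO transcription factors and a group of FOXO target genes were followed in LX-2 cells treated with rhSema3C. The 10 genes were INSR, IRS1, IRS2, FOXO1, FOXO3, PIK3IP1, TXNIP, CCNG2, CITED2 and BCL6. They were picked by gene symbol for their place in the insulin and AKT circuit, with earlier results of these data known. Each symbol had 1 entry among the 33900 genes of the expression table. All 10 were among the 14178 genes tested, which had a mean FPKM (fragments counted per kilobase of transcript and relative to library size) of at least 0.5 over the 6 samples.

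Insulin and related growth factors act through receptors that phosphorylate the docking proteins IRS1 and IRS2, and these recruit PI3K, which in turn activates the kinase AKT. AKT phosphorylates the FOXO factors, which are then held in the cytoplasm. When AKT activity is low, FOXO factors enter the nucleus and switch on genes for growth arrest, stress defence and, as feedback, for the insulin receptor and IRS2. Transcripts of FOXO targets are therefore often read beside AKT activity, although each of them also answers to other regulators.

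LX-2 is an established human hepatic stellate cell line, labelled as wild type. Both groups were kept in medium with fetal bovine serum. Of the 6 samples, 3 received rhSema3C, recombinant human Sema3C, at 300 ng/ml for 48 h and 3 received PBS for the same time. The labels call the samples of a group biological replicates and say nothing about separate cultures, so p-values measure the spread between these samples only. AKT phosphorylation, FOXO proteins and the place of FOXO in the cell were not among the measurements analysed here. From western blots, the study proposes that rhSema3C did not raise AKT phosphorylation in LX-2 cells.

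Total counts per sample lay between 68267808 and 89245585. Mitochondrial genes took 4.75% to 5.42% of the counts in PBS and 3.73% to 3.93% in rhSema3C samples. Of 10 stellate and mesenchymal markers, COL1A1, COL3A1, VIM, PDGFRB, THY1 and ACTA2 were expressed, whereas mean FPKM was 0.109 for COL1A2, 0.138 for PDGFRA, 0.0252 for DES and 0.000955 for LRAT. The summed FPKM of the 10 markers was 1170 to 1230 in PBS and 922 to 983 in rhSema3C samples, most of it VIM, at a mean of 935. Log2 fold changes of rhSema3C over PBS were -0.78 for COL1A1, -0.36 for COL3A1, -0.41 for VIM, -0.96 for THY1 and -0.56 for ACTA2. PDGFRB had 0.09 and did not pass the test described below. Hepatocyte markers summed to 2.62 to 3.14 in PBS and 3.52 to 4.14 in rhSema3C samples, nearly all of it SERPINA1, with ALB at a mean of 0.00516. Endothelial markers summed to 0.151 to 0.178 in PBS and 0.589 to 0.843 in rhSema3C samples, most of it VWF, with CDH5 at a mean of 0.00631. The leukocyte sum was 90.3 to 98.0 in PBS and 63.6 to 69.8 in rhSema3C samples, and came from CD68, with PTPRC at 0.00444 and CD3E at 0.00301. The part of these shifts in the values of the 10 genes was not tested. In bulk RNA, fewer cells expressing a gene and less RNA per cell cannot be told apart.

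Sequences are shown for the members with a FOXO core or an insulin response element core near the start site, and for CCNG2, the member with the largest change. The RefSeq windows (GRCh38.p14) ran from 250 bases before to 50 bases after each start site and were searched on both strands for a FOXO core (GTAAACA or its reverse complement TGTTTAC), the core of the insulin response element (CAAAACA or TGTTTTG) and an E-box (CACGTG, which reads the same on both strands). Capitals mark the motif found, and the printed stretch is the 250 bases before the start site, read on the strand of the gene. The IRS2 sequence is chr13:109786584-109786833 (minus strand), TXNIP is chr1:145996580-145996829 (minus strand) and CCNG2 is chr4:77156957-77157206 (plus strand). The PIK3IP1 match lay just after the start site, so only 24 bases around it are shown, chr22:31292457-31292480 (minus strand).
IRS2: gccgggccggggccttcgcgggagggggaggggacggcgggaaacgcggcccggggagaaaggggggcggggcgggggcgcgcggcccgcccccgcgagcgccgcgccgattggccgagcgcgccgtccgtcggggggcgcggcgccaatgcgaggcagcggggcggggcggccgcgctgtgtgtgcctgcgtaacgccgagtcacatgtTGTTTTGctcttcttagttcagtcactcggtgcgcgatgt
TXNIP: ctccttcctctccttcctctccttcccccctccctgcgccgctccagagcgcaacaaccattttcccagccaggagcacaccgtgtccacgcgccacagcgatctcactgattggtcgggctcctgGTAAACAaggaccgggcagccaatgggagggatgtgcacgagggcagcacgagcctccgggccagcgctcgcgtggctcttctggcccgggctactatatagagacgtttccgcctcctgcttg
CCNG2: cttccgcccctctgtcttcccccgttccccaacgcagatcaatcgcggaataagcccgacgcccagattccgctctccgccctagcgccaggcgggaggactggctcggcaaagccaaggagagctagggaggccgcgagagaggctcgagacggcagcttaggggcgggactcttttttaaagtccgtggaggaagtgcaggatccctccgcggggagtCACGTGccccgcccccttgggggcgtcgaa
PIK3IP1: agagaggcTGTTTACcagaacagc

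The FOXO core was found in the windows of TXNIP, with its first base at -124 from the start site, and PIK3IP1, at 17 bases after it. Of all 35116 windows, 3.42% held these letters on either strand. Some genes have more than 1 window, and 4.19% of all 27305 genes held the letters in any window. The insulin response element core was found in the window of IRS2 alone, at -40, and in 4.92% of all windows and 6.05% of genes. An E-box was found in CCNG2 at -30, CITED2 at -153 and IRS1 at 36 bases after the start. It was found in 7.26% of all windows and 8.77% of genes. None of the 3 motifs was found in the windows of INSR, FOXO1, FOXO3 or BCL6, which says only that these letters are not there. For BCL6, the nearest RefSeq start site lay 257 bases from the start of the gene in the expression table.

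The receptor and its substrates moved apart from each other. INSR rose by 0.33 and IRS1 fell by 1.03 on the log2 scale, and IRS2 did not pass the test. Expression is given as CPM, counts scaled to library size with TMM factors, and fold changes as log2 of rhSema3C over PBS with their standard error (SE), tested with edgeR's quasi-likelihood test and Benjamini-Hochberg adjustment over all genes tested.

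INSR (ENSG00000171105, chr19:7112255-7294414, GRCh38, minus strand) encodes the insulin receptor. Its CPM was 16.7, 15.6 and 18.1 in PBS samples and 20.6, 21.0 and 21.9 in rhSema3C samples. Every rhSema3C sample lay above every PBS sample. The mean went from 16.8 ± 1.22 to 21.2 ± 0.680 CPM (SD, n = 3), which is 1.26-fold, and the log2 difference was 0.33 (SE 0.0839, edgeR adjusted p = 0.0048).

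IRS1 (ENSG00000169047, chr2:226731317-226799759, minus strand) encodes the main docking protein for the insulin and IGF1 receptors in many cell types. It measured 115, 125 and 119.8 CPM in PBS samples and 62.3, 53.7 and 60.7 CPM in rhSema3C samples. The groups stood far apart, with each rhSema3C sample well under the lowest PBS sample. The mean fell from 119.8 ± 4.90 to 58.9 ± 4.54 CPM (SD, n = 3), with a log2 fold change of -1.03 (95% confidence interval -1.16 to -0.89, SE 0.0596, edgeR adjusted p = 1.1e-07). That interval includes a fall by a log2 of 1, so its place past the 2-fold line is not firm. Without PBS replicate 2 the log2 fold change was -0.9953, and without rhSema3C replicate 2 it was -0.96.

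IRS2 (ENSG00000185950, chr13:109752695-109786583, minus strand) encodes the second widely expressed docking protein and is a classical FOXO target in liver. CPM was 21.4, 21.3 and 22.7 in PBS samples against 23.02, 24.4 and 24.4 in rhSema3C samples. The rhSema3C samples all lay above the PBS samples, but only just. The log2 fold change was 0.13 with a 95% confidence interval of -0.02 to 0.29 (SE 0.0718, edgeR adjusted p = 0.13). A change of up to 1.22-fold is thus within its error, and no change is too.

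The balance between the docking proteins' transcripts was compared per length. In single samples, the ratio of IRS2 to IRS1 FPKM was 0.227, 0.208 and 0.231 in PBS samples and 0.451, 0.553 and 0.490 in rhSema3C samples. No ratio in one group came near the other group. The mean ratio was 0.222 ± 0.012 in PBS and 0.498 ± 0.051 in rhSema3C samples (SD, n = 3), a log2 difference of 1.16 with an exact two-sided permutation p of 0.1, the smallest that 3 against 3 samples can give. IRS1 FPKM was above IRS2 FPKM in every sample.

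**Figure D1:**
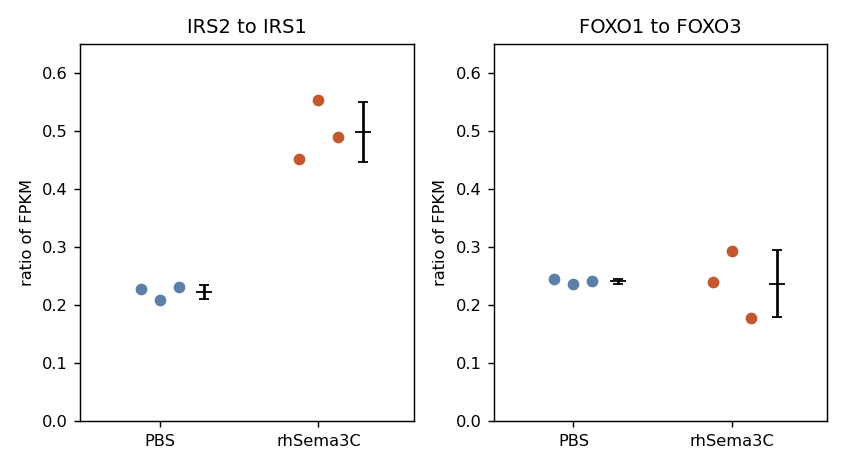
Ratio of FPKM values per sample, IRS2 to IRS1 on the left and FOXO1 to FOXO3 on the right, with samples as points in replicate order and the mean ± SD as black bars (n = 3 per group). The IRS2 to IRS1 ratio lies at 0.208 to 0.231 in PBS and 0.451 to 0.553 in rhSema3C samples, whereas the FOXO1 to FOXO3 ratio overlaps between groups.

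The FOXO factor transcripts showed small differences at most. FOXO1 (ENSG00000150907, chr13:40555667-40666641, minus strand), the FOXO factor best known for hepatic glucose production, had 10.6, 10.0 and 10.0 CPM in PBS samples and 11.8, 13.4 and 9.21 CPM in rhSema3C samples. The rhSema3C samples spread widely, from above to below all PBS samples. The log2 fold change of 0.17 (95% confidence interval -0.13 to 0.46, SE 0.133) did not pass edgeR's test, at an adjusted p of 0.29. It depended on single samples: without rhSema3C replicate 3 it was 0.30 (edgeR adjusted p = 0.042), and without rhSema3C replicate 2 it was 0.04 (adjusted p = 0.81).

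FOXO3 (ENSG00000118689, chr6:108559835-108684774, plus strand), tied to stress resistance and longevity, had 55.9, 54.6 and 53.0 CPM in PBS samples and 63.6, 59.0 and 66.6 CPM in rhSema3C samples. All rhSema3C samples were higher than the PBS samples. The rise from 54.5 ± 1.42 to 63.1 ± 3.85 CPM (SD, n = 3) corresponded to a log2 fold change of 0.21 (SE 0.0562, edgeR adjusted p = 0.0069). FOXO3 has a near-identical copy, FOXO3B, with 564 to 822 counts per sample against 3506 to 5577 for FOXO3, so the split of reads between them is uncertain. The pseudogene FOXO1B had 0 counts in 5 samples and 6 in rhSema3C replicate 1. The ratio of FOXO1 to FOXO3 FPKM was 0.245, 0.236 and 0.242 in PBS samples and 0.239, 0.293 and 0.178 in rhSema3C samples, a log2 difference of -0.06 that the spread covers (exact two-sided permutation p = 0.8). Without rhSema3C replicate 3 this difference was 0.13.

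Of the 5 genes chosen as FOXO targets, PIK3IP1, TXNIP, CCNG2 and BCL6 rose and CITED2 fell. CCNG2 (ENSG00000138764, chr4:77157207-77170060, plus strand) encodes cyclin G2, an unusual cyclin that slows the cell cycle and that FOXO factors induce. It had 29.1, 27.8 and 28.5 CPM in PBS samples and 65.2, 74.0 and 68.4 CPM in rhSema3C samples. No sample came close to the other group. Its mean of 28.5 ± 0.664 rose to 69.2 ± 4.45 CPM (SD, n = 3), a 2.43-fold increase with a log2 fold change of 1.28 (95% confidence interval 1.15 to 1.42, edgeR adjusted p = 2.9e-08). Of all genes tested, 1.51% had a larger positive log2 fold change.

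BCL6 (ENSG00000113916, chr3:187721377-187745725, minus strand) encodes a zinc finger repressor of transcription that is a FOXO target and regulates lipid genes in liver. Its CPM was 23.9, 27.5 and 25.9 in PBS samples and 44.3, 40.6 and 44.0 in rhSema3C samples, with a wide gap between the groups. The log2 fold change was 0.74 (SE 0.0718, edgeR adjusted p = 5.1e-06), which is 1.67-fold.

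PIK3IP1 (ENSG00000100100, chr22:31281594-31292488, minus strand) encodes a membrane protein that binds and restrains the PI3K catalytic subunit. Its mean FPKM was the lowest of the 10 genes in both groups, with 291 to 663 counts per sample. CPM was 5.42, 5.81 and 4.40 in PBS samples and 6.78, 7.21 and 7.78 in rhSema3C samples. The groups did not overlap, although the PBS samples varied more than for most members. The log2 fold change was 0.48 (95% confidence interval 0.17 to 0.78, SE 0.140, edgeR adjusted p = 0.011).

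TXNIP (ENSG00000265972, chr1:145992435-145996579, minus strand) encodes an arrestin-like protein that binds thioredoxin and lowers glucose uptake, and it also answers to glucose through MondoA and ChREBP. It had 68.6, 69.3 and 67.0 CPM in PBS samples and 91.7, 86.6 and 87.3 CPM in rhSema3C samples. Samples within a group were close together and the groups well apart. The mean rose from 68.3 ± 1.16 to 88.5 ± 2.77 CPM (SD, n = 3), 1.30-fold, at a log2 fold change of 0.37 (SE 0.0445, edgeR adjusted p = 2.4e-05).

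CITED2 (ENSG00000164442, chr6:139371807-139374648, minus strand) encodes a co-regulator that competes with HIF1A for CBP and p300, and it is induced by hypoxia as well as by FOXO3. It moved against the other targets. CPM was 171, 182 and 188 in PBS samples and 126, 117 and 127 in rhSema3C samples. The highest rhSema3C sample was far under the lowest PBS sample, and the mean fell from 180.2 ± 8.40 to 123.4 ± 5.37 CPM (SD, n = 3), a log2 fold change of -0.55 (SE 0.0488, edgeR adjusted p = 2.7e-06).

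**Figure D2:**
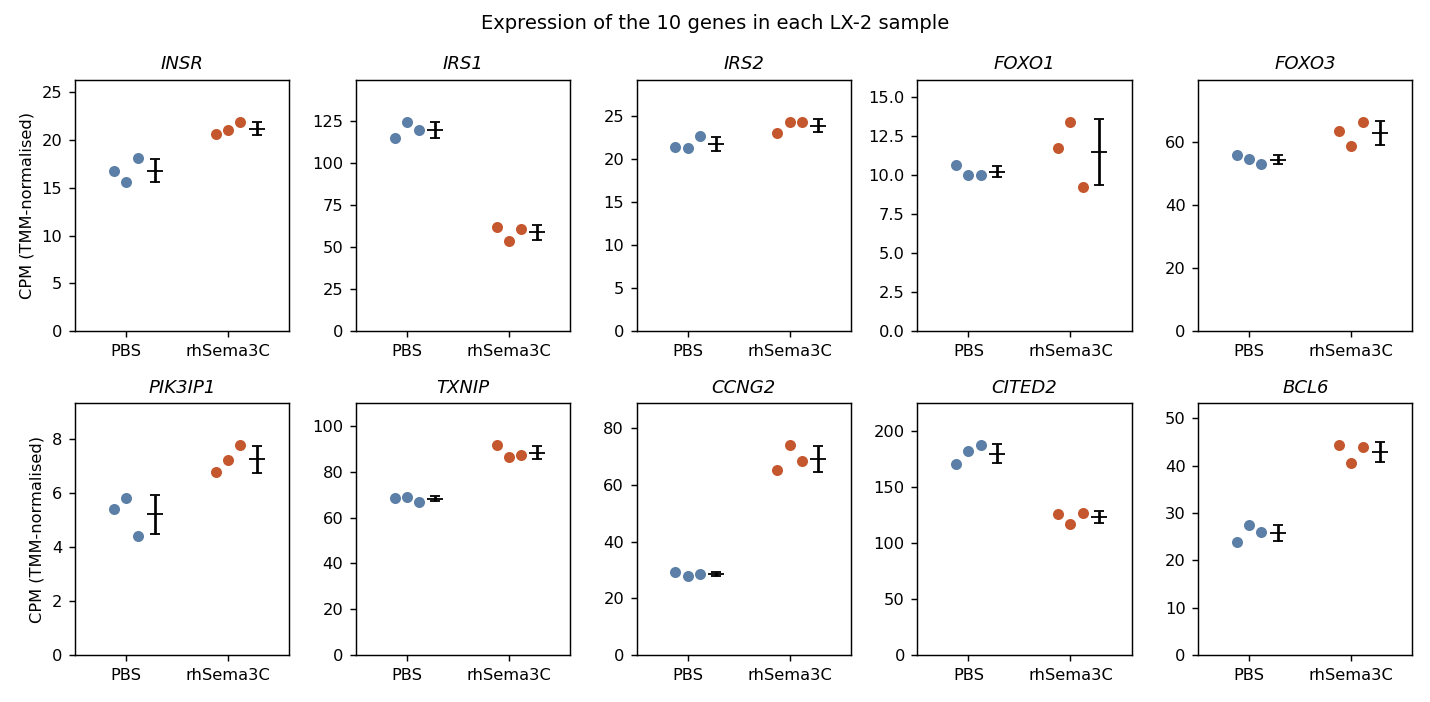
CPM (TMM-normalised, linear axis from 0) of each of the 10 genes in the 3 PBS and 3 rhSema3C samples, with points in replicate order and the mean ± SD as black bars. The groups overlap for FOXO1 alone, IRS1 and CITED2 are lower in rhSema3C samples, and the other 7 genes are higher, of which IRS2 did not pass the test.

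By adjusted p below 0.05, 6 of the 10 genes rose, 2 fell, and IRS2 and FOXO1 did not pass. Over all genes tested, 31.7% were higher and 30.6% lower by the same rule, so 62.3% were called and a call on its own sets few genes apart. In 7 genes every rhSema3C sample lay above, and in 2 below, every PBS sample, against 34.6% and 33.3% of all genes tested, 67.8% together. The study's methods used a fold change over 2 with p below 0.05. By that rule CCNG2 was called higher, beside 3.42% of genes tested, and IRS1 lower, beside 2.12%, with 5.54% called in either direction. Over the 10 genes the median log2 fold change was 0.27, and over all genes tested it was 0.02.

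Scaling moved the sizes more than the directions. When counts were scaled by library size alone, the median of all genes was 0.13, and on the log2(TPM + 1) scale it was 0.23, and the share of rises among all calls went from 50.9% to 62.2% and 74.1%. The log2 fold change of IRS2 then was 0.24 (edgeR adjusted p = 0.013) and 0.33 (limma adjusted p = 0.0037), which is 0.11 and 0.10 above the median of all genes. IRS2 also passed with limma on log2(FPKM + 1) (0.17, adjusted p = 0.025) and on log2(FPKM + 0.1) (0.23, adjusted p = 0.023), and so passed in 4 of the 8 alternatives computed for it beside the fits that leave out a sample. With TPM and limma, that of FOXO1 was 0.33 (adjusted p = 0.042), FOXO3 0.42, TXNIP 0.59 and CITED2 -0.32. With library size alone the value for FOXO3 was 0.32. All 10 genes kept their sign under the 9 alternatives that could be computed for them and with each sample left out.

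**Figure D3:**
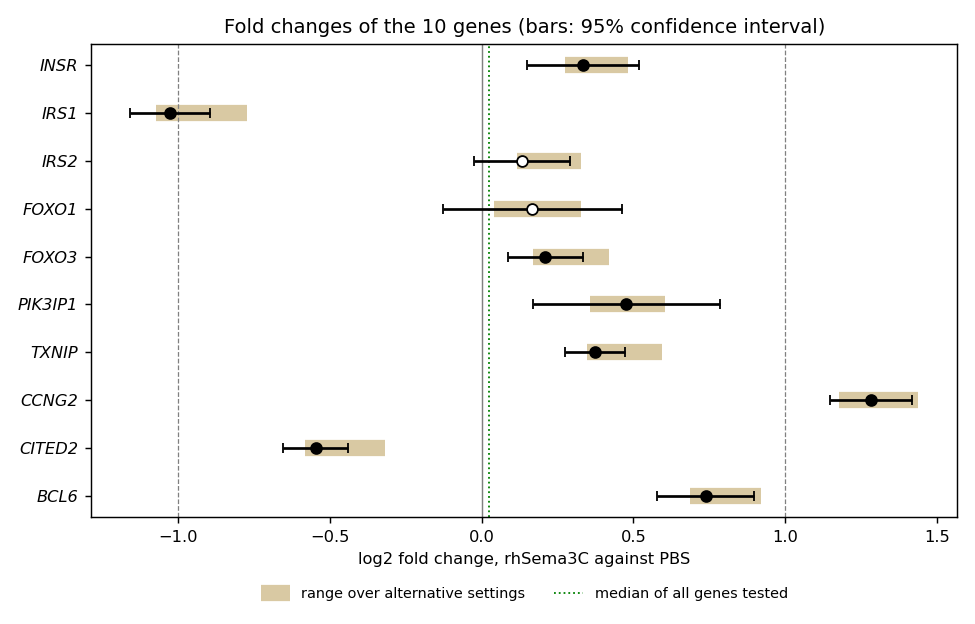
Log2 fold change, rhSema3C against PBS, of the 10 genes with 95% confidence intervals, where filled points passed an adjusted p below 0.05 and open points did not. The tan bands give the range over all alternative settings, dashed lines mark 2-fold and the dotted line marks the median of all genes tested. The CCNG2 band lies beyond 2-fold, the IRS1 band crosses the 2-fold line, and no band crosses 0.

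Per length, CITED2 was the most abundant of the 10 transcripts in both groups, at 66.3 ± 3.12 FPKM in PBS and 48.7 ± 2.15 FPKM in rhSema3C samples. In PBS samples it was followed by TXNIP at 17.9 ± 0.225, IRS1 at 11.4 ± 0.418, FOXO3 at 6.70 ± 0.169, BCL6 at 4.08 ± 0.260 and CCNG2 at 3.61 ± 0.1 FPKM. IRS2, FOXO1, INSR and PIK3IP1 came last, at 2.52 ± 0.104, 1.61 ± 0.0607, 1.46 ± 0.114 and 1.29 ± 0.173 FPKM, and neighbours among FOXO1, INSR and PIK3IP1 overlapped in their samples. The order changed in the middle. In rhSema3C samples CCNG2 came next after TXNIP at 9.44 ± 0.615 FPKM, above FOXO3 at 8.32 ± 0.520 and BCL6 at 7.32 ± 0.354, and IRS1 came after BCL6 at 5.99 ± 0.460 FPKM (SD, n = 3 throughout).

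The genes around the members are described by lists, which were also chosen with earlier results of these data known. Their shares and medians beside those of all genes are therefore descriptive only. By the same rule, 31.7% of all genes tested were higher and 30.6% lower. Among 16 adaptors and brakes of the insulin receptor, 14 were tested, of which 3 rose, 7 fell and 4 did not pass, with a median log2 fold change of -0.08. GRB10, an adaptor that blocks receptor signalling, went from 2.47 ± 0.504 to 7.503 ± 0.704 CPM (log2 fold change 1.603, SE 0.173, edgeR adjusted p = 1.2e-05). Its mean FPKM was 0.234 in PBS and 0.770 in rhSema3C samples. It thus met the filter of 0.5 only through the group where it was high, and it is 1 of the 3 rises. ENPP1 (0.5999) rose too. SH2B2 (0.41, edgeR adjusted p = 0.044) passed narrowly and did not pass without rhSema3C replicate 3 (0.26, adjusted p = 0.21), PBS replicate 1 (0.39) or PBS replicate 3 (0.37). SHC1, the adaptor that leads to RAS, fell by 0.81 on the log2 scale (edgeR adjusted p = 4.1e-08), IGF1R, the receptor for IGF1, by 0.35 and the receptor phosphatase PTPRF by 0.33. On the log2(TPM + 1) scale IGF1R (-0.12) and PTPRF (-0.09995) no longer passed, and 5 genes of the list rose and 1 fell. On the log2(FPKM + 1) scale, where low values are compressed, GRB10 had 0.52.

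All 12 genes of PI3K and the phosphoinositide phosphatases were tested, with 3 higher, 3 lower and a median of 0.10. The regulatory subunit PIK3R1 rose from 24.99 ± 0.697 to 32.6 ± 1.29 CPM (log2 fold change 0.38, SE 0.0654, edgeR adjusted p = 3.7e-04) and the catalytic subunit PIK3CA rose by 0.35, the latter with overlapping groups (edgeR adjusted p = 0.027). The PIK3CA call was lost without any one of 4 samples (PBS replicate 1 or 2, rhSema3C replicate 2 or 3), with 0.22 to 0.36. INPP5K fell by 0.65 and PIK3CD by 0.39 on the log2 scale. INPPL1 fell by 0.13, but had -0.02 with library size alone and 0.095 on the log2(TPM + 1) scale, and did not pass without any one of PBS replicates 2 and 3 and rhSema3C replicates 1 and 2 (-0.13 to -0.09). On the TPM scale 7 genes of the list rose. PIK3R2, another regulatory subunit, had 80.3, 69.4 and 63.5 CPM in PBS samples and 0.381, 0.359 and 54.7 CPM in rhSema3C samples. Its rhSema3C replicate 3 lay near the PBS samples and the other 2 close to 0. The log2 fold change of -1.95 (SE 1.14) did not pass edgeR's test (adjusted p = 0.16), and without rhSema3C replicate 3 it was -7.58 (adjusted p = 1.7e-09). It passed in all 3 limma fits, with -2.55 on log2(FPKM + 1), -4.29 on log2(FPKM + 0.1) and -3.50 on log2(TPM + 1).

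The AKT kinases, their activators and phosphatases and their close substrates numbered 20 and were all tested. Of these 4 rose (20%) and 12 fell (60%), beside 31.7% and 30.6% of all genes tested. Their median log2 fold change was -0.31. AKT1 had 317, 329 and 305 CPM in PBS samples and 216, 200.3 and 220 CPM in rhSema3C samples, with no overlap. It fell by 0.58 (SE 0.0485, edgeR adjusted p = 1.6e-06). AKT2, the isoform tied most to insulin action, fell by 0.64 (adjusted p = 3.2e-07) and PDPK1, the kinase that phosphorylates AKT, by 0.38 (adjusted p = 6.2e-05). AKT1S1 (-0.87) and BAD (-0.68), both substrates of AKT, were among the falls, whereas RICTOR (0.67), GSK3B (0.32) and TSC1 (0.28) rose. On the log2(TPM + 1) scale 7 of the 20 genes fell and 4 rose, with AKT1 at -0.35, AKT2 at -0.40 and PDPK1 no longer passing at -0.15.

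Proteins that bind, modify or export FOXO factors showed little shared direction. Of 16 such genes 15 were tested, 4 rose and 3 fell, and the median was -0.03. MDM2, a ubiquitin ligase, rose by 0.99 (SE 0.0850, edgeR adjusted p = 2e-06), XPO1, the nuclear exporter, by 0.41, and SIRT1, a deacetylase, by 0.30. FOXO4 fell by 0.31 (SE 0.0889, edgeR adjusted p = 0.010), SKP2 by 0.21 and EP300 by 0.19, but none of these passed with library size alone. On the log2(TPM + 1) scale 9 rose and 0 fell, and the values were -0.0787 for FOXO4, 0.02 for SKP2 and 0.04 for EP300. EP300 also did not pass without PBS replicate 2 or without rhSema3C replicate 2 (-0.16 and -0.14).

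The other FOXO target genes mostly rose. Of 24 listed, 16 were expressed enough to be tested. Of these 13 were higher (81.2%, beside 31.7% of all genes tested), 2 lower and 1 did not pass. Their median log2 fold change was 0.48 beside 0.02 for all genes. Of the 16, 11 are also in the KEGG FoxO list described below. SOD2, the mitochondrial superoxide dismutase, which is also a well-known NF-κB target, rose from 713 ± 16.2 to 1648 ± 18.9 CPM (log2 fold change 1.21, SE 0.0374, edgeR adjusted p = 1.3e-09). BBC3, a pro-apoptotic gene also controlled by p53, rose by 1.14 and MXI1, a MYC antagonist, by 1.11. BNIP3 rose by 0.93, from 85.5 ± 6.06 to 162.6 ± 6.98 CPM (edgeR adjusted p = 1.4e-07). The cell cycle inhibitor CDKN1B rose by 0.69, GADD45A by 0.63, SESN1 by 0.58, RBL2 by 0.54 and CAT, which encodes catalase, by 0.42. PINK1 fell by 0.41 (edgeR adjusted p = 2e-05) and MAP1LC3B by 0.14, although MAP1LC3B had -0.03 with library size alone and 0.086 on the log2(TPM + 1) scale, and did not pass without PBS replicate 1 or without rhSema3C replicate 3 (-0.11 and -0.12). BCL2L11, the apoptosis gene often used as a FOXO readout, had a log2 fold change of 0.13 that did not pass (edgeR adjusted p = 0.27), with 0.02 without rhSema3C replicate 1 and 0.32 on the log2(TPM + 1) scale (limma adjusted p = 0.015). The liver targets IGFBP1 and PCK1, with mean FPKM of 0.0447 and 0.00331, were too low to be tested, as were TNFSF10, SESN3, TRIM63, PDK4 and ERBB3, and G6PC1 was not listed under that symbol.

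Relatives and partners of the targets were compared to see whether changes were shared within families. Of 14 tested among 19, 6 rose and 3 fell, with a median of 0.04. ARRDC3, an arrestin-domain relative of TXNIP, went from 24.9 ± 1.82 to 98.4 ± 9.18 CPM (log2 fold change 1.98, SE 0.0768, edgeR adjusted p = 7.1e-09), while ARRDC4, the relative most like TXNIP in its glucose response, had a log2 fold change of -0.18 that did not pass (adjusted p = 0.059), with 0.045 on the log2(TPM + 1) scale. ARRDC4 did pass with median-of-ratios scaling (-0.19, edgeR adjusted p = 0.044), with DESeq2 (-0.19, adjusted p = 0.03) and without rhSema3C replicate 2 (-0.22, edgeR adjusted p = 0.046). Among the regulators of TXNIP, MLXIP, which encodes MondoA, fell by 0.55, and its partner MLX fell by 0.18 but had -0.07 with library size alone and 0.046 on the TPM scale. CCNG1, the paralog of CCNG2 and a p53 target, rose by 0.59. NCOR1, a co-repressor that partners with BCL6, rose by 0.28.

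**Figure D4:**
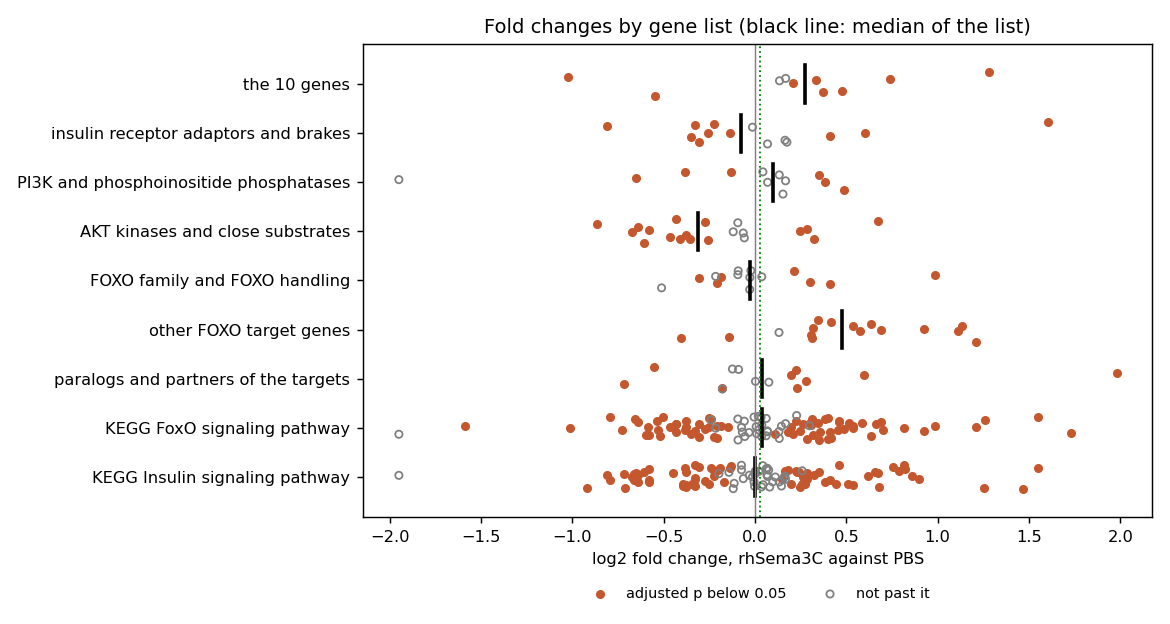
Log2 fold change of each gene tested, by list, where filled points passed an adjusted p below 0.05, open points did not, the black line is the median of the list and the dotted line that of all genes tested; vertical offsets only separate points. The medians are 0.48 for the other FOXO target genes and -0.31 for the AKT kinases and close substrates, beside 0.02 for all genes.

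The pathway lists in the table's own KEGG annotation, taken without the members, were balanced. In the FoxO signaling pathway 100 of 118 genes were tested, 39 rose and 33 fell, with a median log2 fold change of 0.04. Among genes that passed the test without overlap, IL6 (1.73), PCK2 (1.55) and CDKN2B (1.26) rose most, and CCND1 (-1.59), TGFB2 (-1.01) and HRAS (-0.79) fell most. PIK3R2, which did not pass, had the lowest log2 fold change in this list and in the Insulin list. CCND1, which encodes cyclin D1 and which FOXO factors repress, went from 1265 ± 24.2 to 421 ± 11.3 CPM (SD, n = 3). In the Insulin signaling pathway 105 of 122 genes were tested, 34 rose and 38 fell, and the median was 0.00215. PCK2, FASN (1.47), the fatty acid synthase, and HK2 (1.25), a hexokinase, rose most there among genes that passed, and PRKAR1B (-0.92), SHC1 and HRAS fell most. The lists shared 37 genes. On the log2(TPM + 1) scale 60 rose and 18 fell in the first list and 55 and 18 in the second.

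The genes most like CCNG2 over the 6 samples were NAMPT, IDI1 and PPFIA4. Likeness was the root mean square distance between log2 CPM profiles centred on the PBS mean, which was 0.0378, 0.0401 and 0.0520 for these genes among 14177 compared. Their log2 fold changes were 1.28, 1.24 and 1.27, and 315 genes lay within a distance of 0.25.

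On the opposite strand, IRS2 shares 753 bases with a gene known by a clone name that had 0 to 3 counts per sample. CITED2 lies wholly within the span of such a gene, with 0 to 37 counts, and BCL6 overlaps a pair of them, with at most 21 counts. Whether the counting used strand is not given in the sources used here, so reads from these partners cannot be told apart from those of the members.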

How the data were processed

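RNA sequencing covered 3 PBS and 3 rhSema3C samples, grouped by their labels. The authors deposited counts per gene (whole numbers, not normalised) and FPKM values, which the authors scaled to transcript length and library size. The study's methods name Cufflinks and cuffmerge for differential expression. The aligner, the tool behind the counts and the build are not given in the sources used here. Coordinates equalled those of GENCODE v29 (GRCh38) for 19762 of 32887 matched genes. Counts were fitted with edgeR 4.0.16 (R 4.3.3; TMM, quasi-likelihood, no covariate) over 14178 genes with mean FPKM of at least 0.5, and the common biological coefficient of variation was 0.117. TPM was computed here by scaling FPKM to a fixed sum. The alternatives were other scalings, other filters, DESeq2 1.42.0, limma 3.58.1 on log2(FPKM + 1), log2(FPKM + 0.1) and log2(TPM + 1), a fit blocked on replicate number, and the omission of each sample in turn. Tests were tried on simulated counts. Counts are not counted molecules. Plots used matplotlib 3.10.9.

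The 10 members and the gene lists were chosen with earlier results of these data known. Named were all members, in each list up to 3 largest rises and 3 largest falls with an adjusted p below 0.05 and no overlap, AKT1, AKT2, PDPK1, PIK3CA, PIK3R1, IGF1R, FOXO4 and ARRDC4, and the 3 genes most like CCNG2. BCL2L11, BNIP3, CDKN1B, GADD45A, SESN1, RBL2, CAT, PIK3R2 and the untested genes were named after their values were seen. A few genes that this rule names are left out of the text.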

Additional observations from a re-analysis of the deposited data

How the results depend on the processing

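The count of members called higher ran from 4 to 8 with the scaling and the filter, and 2 were called lower in every setting. A mean FPKM of at least 5 left 6 members (4 higher, 2 lower). Only 1 member was past 2-fold under library size alone, that filter and the limma fits, and 1 to 2 with a sample left out. Over all genes, calls were 2603 higher and 2621 lower of 6971 tested with that filter, and 6934 and 2428 of 14178 tested with TPM.

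Under library size alone, the insulin receptor list had 5 higher and 4 lower, the PI3K list 7 higher, FOXO handling 0 lower and the other FOXO targets 1 lower. With only genes of mean FPKM 5 or more, the insulin receptor list had 1 higher and 3 lower, the PI3K list 1 higher, the AKT list 1 higher, FOXO handling 0 lower and the other FOXO targets 1 lower. With limma on log2(FPKM + 1) and on log2(FPKM + 0.1), the insulin receptor list had 4 lower, the PI3K list 5 higher, FOXO handling 1 lower and the other FOXO targets 1 lower. With TPM, the insulin receptor list had 5 higher and 1 lower, the PI3K list 7 higher, the AKT list 7 lower, FOXO handling 9 higher and 0 lower, the other FOXO targets 1 lower, the KEGG FoxO list 60 higher and 18 lower and the KEGG Insulin list 55 higher and 18 lower. DESeq2 gave 5 lower in FOXO handling and 6 lower among relatives and partners, where median-of-ratios scaling gave 5. Other FOXO targets had 1 to 2 lower with a sample left out, 1 without PBS replicate 1 and without rhSema3C replicate 3. The IRS2 to IRS1 log2 difference was 0.9961 on log2(FPKM + 1) and 1.083 to 1.23 with a sample left out. The FOXO1 to FOXO3 difference ran from -0.2263 to 0.1343, reversed without rhSema3C replicate 3. Among other named genes, 6 reversed with TPM: INPPL1 0.09505, EP300 0.03578, SKP2 0.02037, MAP1LC3B 0.08602, MLX 0.04634 and ARRDC4 0.04495. Across 55 other named genes (BNIP3 not included) and all alternatives, 743 values kept direction and call, 48 lost the call and 9 gained it. DESeq2 gave PIK3R2 no adjusted p. The cause of these shifts was not tested.

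Replicate numbers did not pair the samples: deviations of same-numbered samples had correlations of -0.0769, -0.0464 and -0.0364. With the replicate block, 6 members were higher and 2 lower, and 4221 and 4120 of all genes. It changed no call of a member, and of the other named genes SH2B2 (0.3981, adjusted p = 0.071) and INPPL1 (-0.1316, adjusted p = 0.06) no longer passed and PIK3R2 (-4.735, adjusted p = 0.011) did.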
